A study of Homo sapiens with 4 samples.

Results

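The chromosome 19 zinc finger genes are the 267 genes of the expression table whose symbol is ZNF followed by a number and whose deposited locus lies on chromosome 19, out of 57815 genes in all. They were chosen by name and position and not by any measured value. RNA-Seq was carried out on 2 libraries of 3′ WRE-Mut cells and 2 libraries of control cells, both made from HCT116, an established human colorectal carcinoma cell line. 3′ WRE-Mut cells carry deletions of TBE1, the first TCF-binding element of the Wnt-responsive enhancer downstream of MYC, made with CRISPR/Cas9. They are 1 clone grown from a single sorted cell, whereas the control cells are the parental HCT116 population, wild type at TBE1, so that the deletion and other differences between this clone and its parents cannot be told apart. The replicates are 2 RNA preparations per group, and the spread between the 3′ WRE-Mut libraries is therefore not a spread between clones.

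C2H2 zinc finger proteins bind DNA through arrays of fingers, and the largest human family joins such an array to a KRAB domain. The KRAB domain binds TRIM28 (KAP1), which brings in the histone methyltransferase SETDB1 and heterochromatin protein 1, and many of these proteins silence transposable elements. Their genes arose by tandem duplication and lie in long clusters on chromosome 19.

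The values are FPKM, a measure of fragments scaled to transcript length and to the mapped reads of the library, which the authors made from single reads. Read counts were not used here and the sequencing depth is unknown. Between 26851 and 29356 genes per library had a value above 0. Transcript levels were compared as log2(FPKM + 1) with limma for genes averaging at least 1 FPKM over the 4 libraries, a scale that understates the change of low genes. A gene is said to have risen or fallen where its Benjamini-Hochberg adjusted p was under 0.05 in the test over the 11631 protein-coding genes past that level, and the test over all 14815 genes of any type is given beside it. For a single gene, 2 libraries against 2 cannot give an exact two-sided permutation p below 0.333. MYC itself checked the labels: it had 48.0 and 34.2 FPKM in 3′ WRE-Mut cells, against 111 and 113 FPKM in control cells. It fell by 1.44 on the log2 scale (limma, adjusted p = 0.0216 over protein-coding genes and 0.149 over all genes). Of 8 markers of colorectal epithelium, 6 were at 1 FPKM or more in every library and 2, CDX1 and VIL1, were under 0.5 FPKM in every library. The 8 epithelial markers summed to 1919.5 and 1809 FPKM in 3′ WRE-Mut cells, against 2863.8 and 2619.2 FPKM in control cells. Of these, KRT18, a keratin of simple epithelia, fell by 1.46 on the log2 scale (limma, adjusted p = 0.0237 over protein-coding genes and 0.150 over all genes). CDX2, an intestinal transcription factor, had 4.64 and 1.35 FPKM in 3′ WRE-Mut cells, against 10.6 and 7.25 FPKM in control cells (limma, adjusted p = 0.0639). EPCAM, KRT8 and KRT19 were also lower in both 3′ WRE-Mut libraries but were not called. CDH1 went the other way, with 49.5 and 73.0 FPKM in 3′ WRE-Mut cells, against 42.3 and 24.3 FPKM in control cells (limma, adjusted p = 0.103). The 7 of 8 markers of blood, fibroblast and endothelial cells that are in the table summed to 22.0 and 29.5 FPKM in 3′ WRE-Mut cells and to 14.7 and 18.7 FPKM in control cells, nearly all of it from the collagen gene COL1A1, while PTPRC, CD3E, COL3A1 and PDGFRB were under 0.5 FPKM throughout. The part of these marker differences in the results below was not tested.

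The paralogy of these genes limits what can be read from single values. Near-identical fingers let short reads align to several members, read strand is not given, and 151 of the 267 members are overlapped by a gene on the opposite strand. The authors' table merges neighbouring genes into shared loci: 191 members share a locus with at least 1 other gene, up to 22 genes in 1 locus, and 76 stand alone. How reads were divided is uncertain among neighbours for each named member in a shared locus, and among paralogs for every member named here. By annotation, 248 members are protein-coding, 14 are pseudogenes, 1 is a long non-coding RNA and 4 have no entry, and 6 symbols occur in 2 rows.

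Most members were expressed weakly or not at all. The median over the 267 members of the mean level was 0.548 FPKM, against 1.79 FPKM over the 297 ZNF genes of other chromosomes and 2.90 FPKM over the 19403 protein-coding genes of the table. In all, 11 members were at 0 in every library, 97 averaged under 0.1 FPKM (these 11 among them), 33 averaged 0.1 to 0.5 FPKM and 44 averaged 0.5 to 1 FPKM. The remaining 93, all protein-coding, averaged at least 1 FPKM, 26 of them at least 5 FPKM and 12 at least 10 FPKM. Thus 37.5% of the protein-coding members passed the level filter, against 69.8% of the 258 protein-coding ZNF genes of other chromosomes and 59.9% of all protein-coding genes. The filter itself fell between close neighbours. ZNF765, just inside it, had 0.871 and 0.203 FPKM in 3′ WRE-Mut cells and 1.65 and 1.34 FPKM in control cells. ZNF708, just outside it, had 0.902 and 0.242 FPKM in 3′ WRE-Mut cells and 1.21 and 1.62 FPKM in control cells.

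**Figure D1:**
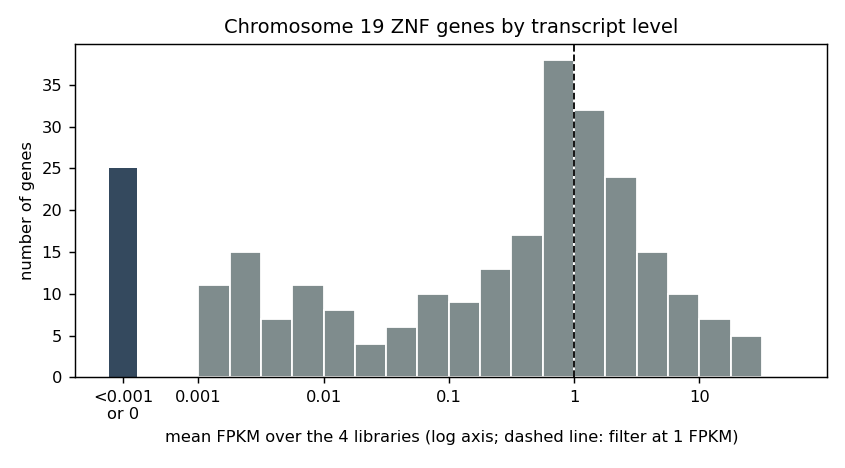
Number of chromosome 19 ZNF genes (vertical axis) by mean FPKM over the 4 libraries (horizontal log axis), with genes at 0 or under 0.001 FPKM in the separate bar on the left and the 1 FPKM filter as a dashed line. The tallest bars lie around the filter, with 174 members below it and 93 at or above it.

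The highest levels belonged to members from several clusters. ZNF581 had 27.5 and 25.6 FPKM in 3′ WRE-Mut cells and 29.8 and 33.8 FPKM in control cells, lower without overlap but by little more than the control spread. Its neighbour ZNF580 had 32.0 and 19.2 FPKM in 3′ WRE-Mut cells and 26.1 and 22.4 FPKM in control cells, with the control values inside the range of the clone. ZNF787, in the same cluster, had 24.5 and 23.3 FPKM in 3′ WRE-Mut cells and 22.4 and 18.3 FPKM in control cells. None of these 3 passed the test (limma, adjusted p = 0.491, 0.943 and 0.545 in that order). Of the others, ZNF317 had 15.2 and 15.5 FPKM in 3′ WRE-Mut cells and 18.3 and 17.8 FPKM in control cells. ZNF414 had 24.9 and 10.6 FPKM in 3′ WRE-Mut cells and 31.6 and 26.7 FPKM in control cells. ZNF414 was lower without overlap, but its 3′ WRE-Mut libraries lay further apart than the groups did, and it did not pass (log2 change −0.79 ± 0.36 SE, limma, adjusted p = 0.181).

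Of the 93 members tested, 1 rose, ZNF333, and 0 fell, which is 1.08% of them. Over all protein-coding genes tested, 8.33% were called, 4.02% as higher and 4.31% as lower. In the test over all genes 0 members were called, with a lowest adjusted p of 0.165, beside 0.189% of all genes. At an unadjusted p under 0.05, limma over protein-coding genes gave 6 members higher and 18 lower, 25.8% of those tested. Of all protein-coding genes 14.6% were higher and 15.6% lower by this rule, 30.1% in all. Over all genes the same rule gave 4 members higher and 8 lower, beside 11.0% and 11.2% of genes and 22.2% in all. By direction, the shares of members in the unadjusted test over protein-coding genes were 6.45% (higher) and 19.4% (lower), and the difference of these shares from those of all protein-coding genes was not tested. In limma over protein-coding genes, 12 members with a negative change and 3 with a positive one had an adjusted p under 0.1. The share of all protein-coding genes under 0.1 was not computed. The lowest adjusted p of the 12 was 0.0527, close to the threshold of 0.05. The count of 1 called member is therefore a fragile one. Leaving out replicate 1 of 3′ WRE-Mut gave 39 calls among the members (7 higher and 32 lower), beside 2018 higher and 2316 lower protein-coding genes. Leaving out replicate 2 of 3′ WRE-Mut gave 2 calls, beside 562 and 677. Leaving out either control library gave 0 calls, beside at most 33 and 60.

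ZNF333, a KRAB zinc finger gene on the plus strand of chromosome 19 (hg19, 14800613 to 14844558), had 6.92 and 10.4 FPKM in 3′ WRE-Mut cells, against 2.88 and 3.66 FPKM in control cells. The lower of the 3′ WRE-Mut values was well above the higher of the control values, and the mean of 8.66 ± 2.46 FPKM in 3′ WRE-Mut cells was 2.65 times the mean of 3.27 ± 0.553 FPKM in control cells (SD, n = 2 each). The log2 change was 1.16 ± 0.30 (SE), with a limma adjusted p of 0.0487 over protein-coding genes and 0.165 over all genes. Without 3′ WRE-Mut replicate 2 the adjusted p was 0.0564, and without control replicate 1 or 2 it was 0.309 and 0.201, so the call was lost in each of these fits. ZNF333 shares its deposited locus with 4 other genes and is overlapped by 2 genes on the opposite strand, and reads of these cannot be told apart without strand.

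Promoter windows are shown for ZNF333 as the only member called, and for ZNF565 and ZNF577, which differed in opposite directions without overlap and were the members among the largest differences whose window holds CACGTG, the E-box that MYC and MAX bind. Each runs 5′ to 3′ on the strand of the gene, from 250 bases before to 50 bases after a start site in RefSeq on GRCh38.p14, with CACGTG in capitals where it occurs. ZNF333 lies at chr19:14689798-14690097 on the plus strand, ZNF565 at chr19:36215035-36215334 on the minus strand (another start site of this gene also has a match) and ZNF577 at chr19:51887902-51888201 on the minus strand.
ZNF333: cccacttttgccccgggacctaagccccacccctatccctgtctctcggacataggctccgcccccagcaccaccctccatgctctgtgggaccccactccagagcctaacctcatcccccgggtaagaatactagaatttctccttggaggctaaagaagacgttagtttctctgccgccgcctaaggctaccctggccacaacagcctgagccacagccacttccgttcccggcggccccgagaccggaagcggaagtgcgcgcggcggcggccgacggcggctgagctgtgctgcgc
ZNF565: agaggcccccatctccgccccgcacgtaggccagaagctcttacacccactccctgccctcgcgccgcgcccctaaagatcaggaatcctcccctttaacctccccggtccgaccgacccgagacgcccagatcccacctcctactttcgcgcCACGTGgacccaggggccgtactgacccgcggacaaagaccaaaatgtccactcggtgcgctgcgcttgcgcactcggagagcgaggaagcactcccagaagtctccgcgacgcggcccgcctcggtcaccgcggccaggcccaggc
ZNF577: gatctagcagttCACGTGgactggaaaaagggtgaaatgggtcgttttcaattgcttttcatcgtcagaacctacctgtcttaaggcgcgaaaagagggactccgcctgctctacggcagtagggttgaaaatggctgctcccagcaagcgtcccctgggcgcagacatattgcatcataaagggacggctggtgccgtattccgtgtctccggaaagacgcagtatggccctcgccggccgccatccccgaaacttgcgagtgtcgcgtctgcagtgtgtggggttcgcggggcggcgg

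The windows of ZNF333, ZNF565 and ZNF577 hold 22, 32 and 25 CpG sites. CACGTG was searched as these 6 letters, which read the same on both strands and overlap no other motif searched. It occurs in 9 of 101 windows (8.91%) of the members past the level filter and in 3 of 163 windows (1.84%) of those below it, against 8.34% of the windows of all protein-coding genes and 7.26% of all windows. The 8 genes past the filter with a match, ZNF507, ZNF565, ZNF296, ZNF577, ZNF460, ZNF587, ZNF814 and ZNF324, had log2 changes between −0.92 and 0.51 and none was called. A match is a description of these letters and not evidence of binding.

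Among the other members higher without overlap, ZNF567 was the most even. It had 2.99 and 3.09 FPKM in 3′ WRE-Mut cells, against 0.930 and 1.25 FPKM in control cells (log2 change 0.96 ± 0.27 SE, limma, adjusted p = 0.0606). ZNF699, the homolog of the hangover gene of ethanol tolerance in Drosophila, had 2.41 and 3.65 FPKM in 3′ WRE-Mut cells and 1.45 and 0.652 FPKM in control cells (log2 change 0.99 ± 0.32 SE, limma, adjusted p = 0.0826). For ZNF567 the gap between the groups was many times the spread within either, while for ZNF699 it was narrower than the spread of the 3′ WRE-Mut pair. The KRAB gene ZNF805 had 2.85 and 3.58 FPKM in 3′ WRE-Mut cells, against 1.44 and 1.78 FPKM in control cells. Its neighbour ZNF264, also a KRAB gene, had 3.52 and 4.17 FPKM in 3′ WRE-Mut cells and 1.91 and 3.10 FPKM in control cells. Both were higher without overlap, and none of these 4 genes passed the threshold.

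The largest negative differences included both well-expressed and scarce members. ZNF146 (OZF), which consists almost wholly of fingers and is known to be overexpressed in pancreatic and colorectal carcinoma, had 23.5 and 9.93 FPKM in 3′ WRE-Mut cells, against 33.5 and 34.3 FPKM in control cells. ZNF358 had 10.9 and 8.46 FPKM in 3′ WRE-Mut cells, against 28.0 and 17.3 FPKM in control cells. ZNF444, a SCAN domain zinc finger gene, had 14.9 and 7.68 FPKM in 3′ WRE-Mut cells, against 22.3 and 19.9 FPKM in control cells. All 3 were lower without overlap, by 1.09 ± 0.36, 1.12 ± 0.30 and 0.91 ± 0.32 on the log2 scale (SE), with limma adjusted p of 0.0853, 0.0527 and 0.100, and so did not pass. ZNF358 passed under several other settings, such as quantile normalization, but not with a pseudocount of 0.1 or 0.5. With no filter it did not pass either (limma, adjusted p = 0.217). Its log2 change was between −1.45 and −0.79 with 1 library left out. ZNF146 and ZNF565 overlap on opposite strands within 1 deposited locus and differed in opposite directions, ZNF565 with 1.73 and 1.38 FPKM in 3′ WRE-Mut cells and 0.519 and 1.12 FPKM in control cells. With no read strand given, the division of reads between this pair is uncertain.

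Among the lower-expressed members, ZNF480 had 1.63 and 0.183 FPKM in 3′ WRE-Mut cells, against 3.20 and 4.76 FPKM in control cells. This was the largest change of any tested member (log2 change −1.48 ± 0.40 SE, limma, adjusted p = 0.0534). ZNF776 had 1.17 and 0.571 FPKM in 3′ WRE-Mut cells and 3.75 and 2.43 FPKM in control cells (log2 change −1.13 ± 0.31 SE, limma, adjusted p = 0.0557). ZNF791 had 2.56 and 2.11 FPKM in 3′ WRE-Mut cells and 5.26 and 5.73 FPKM in control cells (log2 change −0.96 ± 0.27 SE, limma, adjusted p = 0.0586), in a deposited locus that merges 22 genes. For ZNF791 both groups were tight and far apart, whereas ZNF480 was carried down mostly by 3′ WRE-Mut replicate 2. ZNF653 showed the same asymmetry, with 7.19 and 2.11 FPKM in 3′ WRE-Mut cells against 9.44 and 12.3 FPKM in control cells. ZNF577 had 0.889 and 0.173 FPKM in 3′ WRE-Mut cells, against 1.53 and 2.14 FPKM in control cells. ZNF780A had 2.53 and 0.994 FPKM in 3′ WRE-Mut cells and 4.59 and 3.85 FPKM in control cells. For each of these 3 genes 3′ WRE-Mut replicate 2 was the lowest of the 4 libraries. ZNF627, a further KRAB gene of this pattern, had 1.62 and 0.741 FPKM in 3′ WRE-Mut cells and 2.95 and 3.04 FPKM in control cells. ZNF480, ZNF776 and ZNF577 averaged under 1 FPKM in 3′ WRE-Mut cells. They passed the level filter only through control cells, the group in which they were higher.

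**Figure D2:**
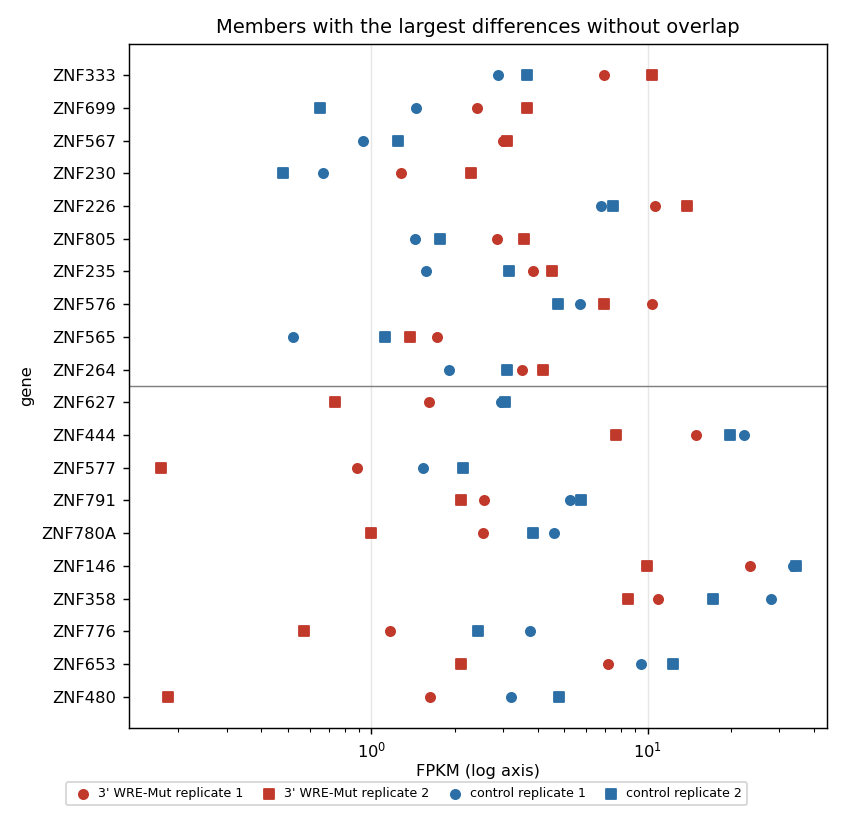
FPKM per library (horizontal log axis) of the 10 largest positive (above the line) and 10 largest negative (below it) log2 changes among tested members whose groups do not overlap, with 3′ WRE-Mut libraries in red, control libraries in blue, replicate 1 as circles and replicate 2 as squares. In all 10 genes below the line the replicate 2 square of 3′ WRE-Mut lies left of its replicate 1 circle, and ZNF791 has the closest red pair of the 10.

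Members with a studied function fell on both sides of the filter. ZNF91, which represses SVA retrotransposons in primates, had 1.85 and 1.72 FPKM in 3′ WRE-Mut cells, against 4.12 and 4.31 FPKM in control cells. The pairs were tight and did not overlap, with 2.36 times more in control cells and a log2 change of −0.90 ± 0.27 (SE), but ZNF91 did not pass (limma, adjusted p = 0.0670). ZNF121, whose product binds MYC, had 12.7 and 9.68 FPKM in 3′ WRE-Mut cells and 17.4 and 21.6 FPKM in control cells (log2 change −0.76 ± 0.26 SE, limma, adjusted p = 0.0984), again without overlap and short of the threshold. ZNF274, which brings SETDB1 to the 3′ ends of zinc finger genes, had 3.0 and 3.62 FPKM in 3′ WRE-Mut cells and 3.30 and 3.68 FPKM in control cells. Its groups overlapped, as did those of ZNF350 (ZBRK1), a partner of BRCA1, with 1.6 and 0.870 FPKM in 3′ WRE-Mut cells and 1.71 and 1.18 FPKM in control cells. ZNF473 (ZFP100), a component of histone pre-mRNA processing, had 4.37 and 2.62 FPKM in 3′ WRE-Mut cells and 2.2 and 3.21 FPKM in control cells. ZNF675, an inhibitor of TRAF6 signalling, had 2.13 and 1.31 FPKM in 3′ WRE-Mut cells and 1.75 and 1.33 FPKM in control cells. Both overlapped between the groups. The smallest changes of all were those of ZNF77 and ZNF823, at −0.02 ± 0.29 and 0.02 ± 0.28 on the log2 scale (SE), and standard errors of this size limit what 2 replicates can detect.

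The studied members below the filter were not tested. ZNF224, a repressor of aldolase A, had 0.263 and 0.194 FPKM in 3′ WRE-Mut cells and 0.980 and 1.66 FPKM in control cells, without overlap. ZNF649 had 0.403 and 0.358 FPKM in 3′ WRE-Mut cells and 0.547 and 0.705 FPKM in control cells, also without overlap. ZNF85 had 0.327 and 0.547 FPKM in 3′ WRE-Mut cells and 0.323 and 0.321 FPKM in control cells. ZNF671 and ZNF382, both known to be silenced by methylation in tumours, reached at most 0.244 FPKM in any library, as did the imprinted gene ZNF331. The LINE-1 repressor ZNF93 had 0 FPKM in each library of the clone and 0.0018 and 0.0018 FPKM in control cells.

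Taken over their whole distribution, the tested members lay lower in 3′ WRE-Mut cells. Their median log2 change was −0.23, and 66 of 93 (71.0%) had a negative change, against a median of −0.02 and 51.5% negative over all tested protein-coding genes. Without overlap between the groups, 15 members (16.1%) were higher and 40 (43.0%) lower in 3′ WRE-Mut cells, against 30.9% and 32.0% of protein-coding genes. Changes were moderate, since 56 members were within 0.5 of 0 on the log2 scale, 1 was at or above 1 and 5 were at or below −1. In bulk RNA, fewer cells expressing a gene and less of its RNA per cell cannot be told apart. A filter on the mean can admit a gene through 1 group alone. Of the 93, 13 averaged under 1 FPKM in 3′ WRE-Mut cells only and 2 in control cells only. The 78 members averaging at least 1 FPKM in both groups were therefore also taken. Their median was −0.17, against −0.01 over 11069 protein-coding genes chosen in that way. Of the 78, 13 were higher and 27 lower without overlap, beside 30.9% and 32.0% of all tested protein-coding genes. The share lower among the 78 was thus close to 32.0% and below the 43.0% of the 93. The share higher stayed well below 30.9%. The shares without overlap over the 11069 genes were not computed. The 44 members at 0.5 to 1 FPKM leaned the same way, with 3 higher (6.82%) and 22 lower (50.0%) without overlap, but so did the 911 protein-coding genes of that level, of which 18.1% were higher and 37.0% lower.

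ZNF genes elsewhere in the genome lay lower as well. The 180 tested ZNF genes of other chromosomes had a median log2 change of −0.29, with 69.4% negative. Of them, 31 (17.2%) were higher and 84 (46.7%) lower without overlap, against 30.9% and 32.0% of protein-coding genes. Of the 180, 2 rose and 11 fell in the test over protein-coding genes, which called 4.02% of all genes higher and 4.31% lower. The 774 other tested protein-coding genes of chromosome 19 had a median of −0.02, with 30 called higher and 38 called lower. Without overlap, 29.1% of them were higher and 33.6% lower. However, 403 of the 774 averaged 20 FPKM or more and the lower ones had negative medians, given by level in the next paragraph. The difference between these sets was not tested.

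The members' median change was negative at every transcript level, and that of all protein-coding genes only below 20 FPKM. The members' shift also moved with 1 library. Members averaging 1 to 2 FPKM had a median change of −0.27 (n = 40), against −0.19 over the 1141 protein-coding genes of that level, and at 2 to 5 FPKM the medians were −0.18 (n = 27) and −0.19. At 5 to 20 FPKM they were −0.22 (n = 21) for members and −0.04 for protein-coding genes, and at 20 FPKM or more −0.25 (n = 5) and 0.14. The other protein-coding genes of chromosome 19 had medians of −0.22, −0.28, −0.25 and 0.11 in these 4 bands, so that up to 20 FPKM they lay about as low as the members. At 1 to 2 FPKM 77.5% of the members had a negative change and 7.50% were higher without overlap, against 62.9% and 19.5% of protein-coding genes. The ZNF genes of other chromosomes stood near the members in that band, at 72.7% and 6.82%. At 2 to 5 FPKM the shares were 70.4% and 22.2% of the members, against 61.6% and 23.0% of protein-coding genes. The highest band, the one in which the medians of members and of the other sets had opposite signs, holds only 5 members. Relative to the control mean, the median member lay at −0.07 for replicate 1 of 3′ WRE-Mut and at −0.38 for replicate 2. The lowest of the 4 libraries was 3′ WRE-Mut replicate 2 for 59 of 93 members (63.4%), against 36.0% of protein-coding genes, and 70 of 93 were lower in replicate 2 than in replicate 1. Without 3′ WRE-Mut replicate 2 the median change of the members was −0.07. The part of transcript level and of this library in the members' lower values was not tested.

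**Figure D3:**
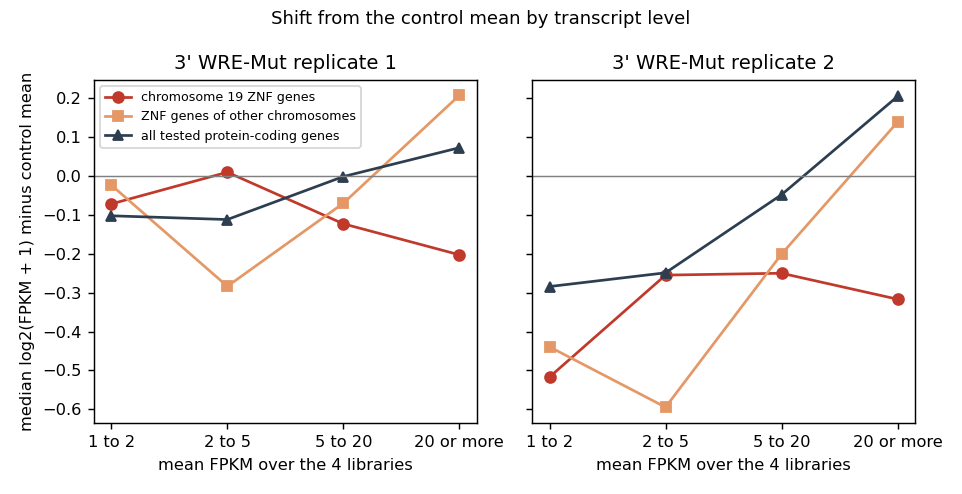
Median of log2(FPKM + 1) minus the control mean (vertical axis) in each 3′ WRE-Mut library, for chromosome 19 ZNF genes, ZNF genes of other chromosomes and all tested protein-coding genes, by mean FPKM (horizontal axis). In replicate 2 the members lie at −0.52 in the lowest band, against −0.28 for protein-coding genes, and in the highest band, which holds 5 members, at −0.32 against 0.20.

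The 3′ WRE-Mut replicates of the members were shifted against each other. The median difference of replicate 2 minus replicate 1 in 3′ WRE-Mut cells was −0.35 on the log2 scale over the tested members, of which 75.3% were lower in replicate 2, against 49.7% of protein-coding genes. Around such shifts, the difference between replicates had a standard deviation of 0.53 (3′ WRE-Mut) and 0.36 (control) on the log2 scale over the tested members, and 0.55 and 0.36 over protein-coding genes. The authors also gave a lower and an upper bound for each FPKM value. The distance from the lower to the upper bound, divided by 2, was taken as a percentage of the value. Its median over the tested members was 102% and 114% in 3′ WRE-Mut cells and 102% and 109% in control cells. This was wider than the 87.9% and 93.1%, and 83.6% and 87.2%, of protein-coding genes. Between the groups these bounds were apart for 0 of 93 members, against 0.267% of protein-coding genes.

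Along the chromosome the members fell into 9 clusters, separated wherever more than 1 Mb of hg19 sequence held no member start, and 14 scattered genes. Beside the counts by cluster, 30.9% of all tested protein-coding genes were higher and 32.0% lower without overlap. The cluster at 11.6 to 12.8 Mb had the lowest median, −0.78 over 6 tested of 30 members, with 4 lower and 0 higher without overlap. It includes ZNF653, ZNF791 and ZNF627. ZNF700, named after its values were seen, is also among the 4. It averaged 0.588 FPKM in 3′ WRE-Mut cells and 1.48 FPKM in control cells, so it passed the filter through control cells alone. The cluster at 52.1 to 54.1 Mb, with ZNF480 and ZNF577, had a median of −0.31 over 15 tested of 43 members and 14 negative changes. Relative to the control mean, replicate 1 of 3′ WRE-Mut had a median of −0.18 there and replicate 2 of −0.80. The largest cluster, at 56 to 59 Mb near the end of the long arm, had a median of −0.23 over 27 tested of 61 members, 4 higher and 13 lower without overlap, against −0.13 over the 15 other tested protein-coding genes lying there.

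The pericentromeric cluster at 19.8 to 24.3 Mb, which holds ZNF91 and ZNF93, was the least expressed of the large clusters, with 7 tested of 41 members and a median change of −0.06. The cluster at 36.7 to 38.3 Mb, which holds ZNF146, ZNF565 and ZNF567, had a median of −0.09 over 7 tested of 26 members. Of the 7, 2 were higher and 4 lower without overlap, beside 30.9% and 32.0% of all tested protein-coding genes. None of the 6 members at 35 to 35.5 Mb passed the level filter. At 8.58 to 9.90 Mb 10 of 15 members were tested, with a median of −0.33, and 9 of the 10 changes were negative, with ZNF699 as the exception. At 2.82 to 2.94 Mb 2 of 5 were tested, with a median of −0.24. The 8 tested scattered genes had a median of −0.47, with ZNF333 the only 1 of them higher without overlap.

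The cluster at 44 to 45.8 Mb ran the other way. Its 11 tested members of 26 had a median log2 change of 0.38. Of the 11, 5 were higher and 0 lower without overlap, beside 30.9% and 32.0% of all tested protein-coding genes. Relative to the control mean, replicates 1 and 2 of 3′ WRE-Mut had medians of 0.15 and 0.36 there. With clusters separated by 0.5 Mb the cluster loses 1 tested gene, ZNF296, and its median was 0.23. The 24 other tested protein-coding genes lying there had a median of −0.05. ZNF226, which stands alone in its deposited locus with no gene on the opposite strand, had 10.6 and 13.9 FPKM in 3′ WRE-Mut cells, against 6.79 and 7.49 FPKM in control cells (log2 change 0.69 ± 0.27 SE, limma, adjusted p = 0.123). ZNF230 had 1.28 and 2.29 FPKM in 3′ WRE-Mut cells and 0.666 and 0.479 FPKM in control cells, and ZNF235 had 3.84 and 4.49 FPKM in 3′ WRE-Mut cells and 1.58 and 3.14 FPKM in control cells. ZNF576 had 10.4 and 6.95 FPKM in 3′ WRE-Mut cells and 5.67 and 4.76 FPKM in control cells. These 4 genes were higher without overlap, as was ZNF222, and none passed the test. Weaker members of the cluster went both ways. Of its 5 members at 0.5 to 1 FPKM, 0 were higher and 4 lower without overlap, among them ZNF224 above. Of all protein-coding genes of that level, 18.1% were higher and 37.0% lower. ZNF221 had 0.356 and 0.172 FPKM in 3′ WRE-Mut cells and 1.68 and 0.924 FPKM in control cells, and ZNF180 had 0.519 and 0.314 FPKM in 3′ WRE-Mut cells and 1.08 and 1.22 FPKM in control cells. Below 0.5 FPKM, ZNF112 had 0.446 and 0.752 FPKM in 3′ WRE-Mut cells and 0.169 and 0.180 FPKM in control cells, higher without overlap, as were ZNF233 and ZNF284, while ZNF234 was lower without overlap. ZNF221, ZNF222, ZNF180, ZNF112, ZNF233, ZNF284 and ZNF234 were named after their values were seen. Since these genes are close paralogs, reads moving between neighbours of the cluster and changes of their transcripts cannot be told apart here.

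**Figure D4:**
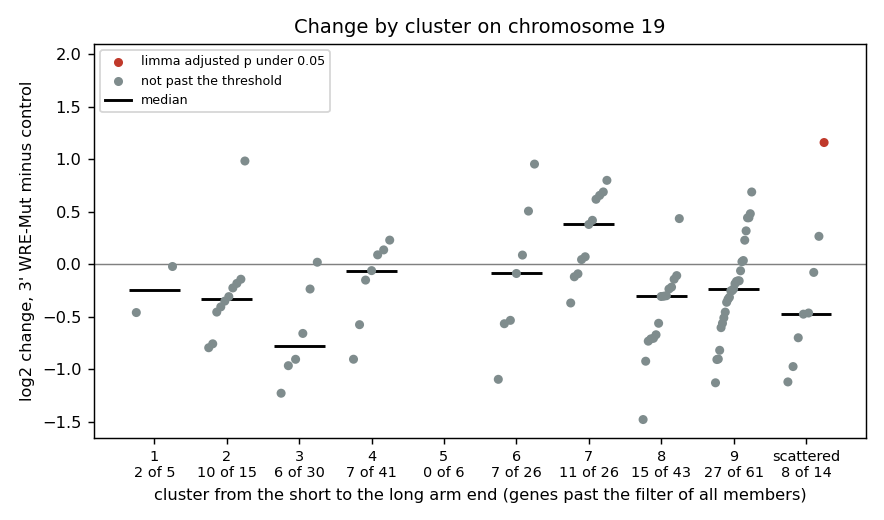
Log2 change of each tested member (vertical axis, 3′ WRE-Mut minus control) by cluster in chromosomal order, with the number of tested members of all members under each cluster and the median as a black line. Cluster 7 (44 to 45.8 Mb) is the only one with a positive median, 0.38, cluster 3 (11.6 to 12.8 Mb) has the lowest, −0.78, and ZNF333 among the scattered genes is the 1 gene past the threshold (red).

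The partners through which KRAB proteins silence chromatin were measured beside the members, on a list of 27 genes. Of these, 25 were tested, 0 rose and 2 fell, ATRX and MORC2, with a median log2 change of −0.21 and 19 negative changes. Over all protein-coding genes 4.31% were called lower. ATRX, a chromatin remodeller of heterochromatin, had 1.49 and 0.887 FPKM in 3′ WRE-Mut cells, against 5.56 and 3.57 FPKM in control cells. It fell by 1.34 on the log2 scale (limma, adjusted p = 0.0406 over protein-coding genes and 0.166 over all genes). MORC2, an ATPase that acts with the HUSH complex, had 3.56 and 1.25 FPKM in 3′ WRE-Mut cells, against 8.35 and 8.30 FPKM in control cells. It fell by 1.54 on the log2 scale (limma, adjusted p = 0.0410 over protein-coding genes and 0.170 over all genes). Both calls were lost without control replicate 1 (adjusted p = 0.297 for ATRX and 0.191 for MORC2) or without control replicate 2 (0.140 and 0.182). Over all genes, where UHRF1 was tested as well, limma called 0 of the listed genes. At an unadjusted p under 0.05 it gave 5 of them lower and 0 higher, beside 11.2% and 11.0% of all genes.

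The central cofactors did not pass in the main test. TRIM28, whose own gene lies beside the last cluster of chromosome 19, had 566 and 702 FPKM in 3′ WRE-Mut cells, against 744 and 755 FPKM in control cells, lower without overlap (log2 change −0.25, limma, adjusted p = 0.522). SETDB1 had 8.47 and 7.60 FPKM in 3′ WRE-Mut cells and 5.95 and 8.38 FPKM in control cells, with overlapping groups. TRIM28 was thus far more abundant per kilobase than any zinc finger member, and its level in the 3′ WRE-Mut libraries differed from control by less than those libraries differed from each other.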

How the data were processed

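RNA-Seq libraries of 2 replicates each of 3′ WRE-Mut and control HCT116 cells were analysed. The authors aligned reads to hg19 with TopHat2 2.0.9 and deposited FPKM values per gene and library, with lower and upper bounds, made with Cufflinks (version 2.2.1 in the submitters' processing notes). A second deposited table holds the authors' own group means, fold changes, p-values and q-values and was not used. Depth is unknown, as counts were not used here. limma 3.58.1 in R 4.3.3 was fitted to log2(FPKM + 1) by group, with a variance trend, for genes averaging at least 1 FPKM, with Benjamini-Hochberg adjustment over protein-coding genes (Gencode v44lift37) or all genes, and was tested on simulated data. Figures were drawn with matplotlib 3.10.9. Members and lists were chosen with earlier results of these data known. Genes named were those called, the 10 largest changes without overlap in each direction, the 6 highest, studied members, the 2 smallest changes, those at the filter, TRIM28, SETDB1 and MYC, and others where stated. Alternatives were other pseudocounts, filters, scalings, variance models and thresholds, a replicate block, each library left out and a cluster gap of 0.5 Mb.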

Additional observations from a re-analysis of the deposited data

How the results depend on the processing

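The count of 1 called member was 0 with a pseudocount of 0.1 or 0.5, with no filter, with a mean of at least 0.5 FPKM or at a threshold of 0.01, 2 with a mean of at least 5 FPKM, 3 with quantile normalization or a robust variance prior, 15 at a threshold of 0.1, 19 with a replicate block (4 higher, 15 lower), and 0 to 39 with 1 library left out. Over tested protein-coding genes, the difference between replicates 1 and 2 in 3′ WRE-Mut cells correlated by 0.11 with that in control cells. The replicate numbers were not taken as a pairing. The block called 1280 protein-coding genes higher and 1582 lower. The calls over all protein-coding genes moved with the other settings as well. They were 535 higher and 489 lower of 8207 with a mean of at least 5 FPKM. Of 11631 they were 656 and 634 with quantile normalization, and 545 and 591 with a robust variance prior. With a pseudocount of 0.1 they were 250 and 263, and with no filter 0 and 1. Those at thresholds of 0.01 and 0.1 were not computed. Over all genes 0 members were called under each of these settings. The median change of −0.23 was −0.059 with no filter, −0.035 with quantile normalization and −0.38 to −0.066 with 1 library left out. With a gap of 0.5 Mb the cluster at 56 to 59 Mb split into parts of 9 and 18 tested genes with medians of −0.31 and −0.17, the one at 44 to 45.8 Mb lost 1 tested gene, and the other clusters stayed whole. The 2 called cofactors were 0 with a pseudocount of 0.1 or no filter, 1 with a mean of at least 5 FPKM, 4 with the block and 0 to 8 with 1 library left out. The adjusted p of ZNF333 ranged between 0.00065 and 0.309. ZNF358 passed and ZNF333 did not under median-ratio scaling (adjusted p = 0.0495 and 0.0502). Quantile normalization gave 3 cofactors lower, TRIM28 among them (log2 change −0.66, limma, adjusted p = 0.0398). Small changes turned sign. Under quantile normalization ZNF580 was −0.012, ZNF274 0.11, ZNF350 0.12 and ZNF77 0.16, and under median-ratio scaling ZNF77 was 0.0051. With 1 library left out, the lowest and highest values were −0.32 and 0.39 for ZNF580, −0.16 and 0.043 for ZNF274, −0.38 and 0.10 for ZNF350, −0.016 and 0.55 for ZNF473, −0.13 and 0.31 for ZNF675, −0.23 and 0.19 for ZNF77, −0.12 and 0.16 for ZNF823, and −0.056 and 0.38 for SETDB1. The cause of these shifts was not tested. A lone library left in a group was assumed to vary like the other group.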
